A study of Arabidopsis thaliana with 24 samples.

Results

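The genes described here encode enzymes that attach auxin to other molecules: 3 members of the GH3 family, GH3.1 (locus AT2G14960), GH3.3 (AT2G23170) and WES1 (AT4G27260, also called GH3.5), and the glucosyltransferase IAGLU (AT4G15550, also called UGT75D1). They were chosen by annotation, and each is read by 1 probe set, so that 4 probe sets among 22746 and 4 genes among the 13356 named by a probe set of 1 gene are described. GH3 enzymes join indole-3-acetic acid, the main natural auxin, to amino acids, and IAGLU is annotated as joining it to glucose. Both reactions take free auxin out of the pool that the receptors can sense. GH3 genes are classical early auxin response genes: auxin removes the Aux/IAA repressors from their promoters, and the enzymes then lower the hormone that induced them. 2,4-D (2,4-dichlorophenoxyacetic acid) is a synthetic auxin used as a herbicide, which binds the same receptors and persists longer in the plant than the natural hormone.

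Leaves of 2 genotypes of Arabidopsis thaliana in the Col-0 background were measured on 24 Affymetrix ATH1 arrays. The genotypes were the wild type (WT) and the single insertion line acx1-2 (named ACX on the arrays), disrupted in a gene for acyl-CoA oxidase, which opens peroxisomal beta-oxidation. Each genotype had 6 arrays named 0 h, 3 arrays 1 h after a spray with 23 mM 2,4-D and 3 arrays 72 h after it, and each array pooled leaves from at least 5 plants grown in soil under 16 h of light. The solvent of the spray held 1% dimethyl sulfoxide and 1% ethanol, and the labels state that control plants received solvent only and were sampled at 1 and 72 h. Whether the 0 h arrays are those controls is not stated, so a change against 0 h cannot be told apart from effects of the solvent, the spraying, the hour of the day or leaf age.

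All values are log2 expression values, on which a difference of 1 is a 2-fold change, and a gene was called changed at a Benjamini-Hochberg adjusted p under 0.05 in limma over all 22746 probe sets. Array medians lay between 5.95 and 6.17, and arrays of 1 group correlated across probe sets at r of 0.974 to 0.997. The precision is limited by the number of arrays. No probe set is annotated to ACX1, so the disrupted gene was not checked here. Of 13 leaf mesophyll markers 1 is named on the array, SBPASE, a Calvin cycle gene, whose group means ran from 11.76 to 13.43. Of 12 markers of other cells 5 are named (guard cell, trichome, root and pollen genes). Their summed linear level was 1159 to 2163 in WT and 2413 to 2934 in ACX at 0 h, 1718 to 2475 and 1491 to 2128 at 1 h, and 273 to 593 and 225 to 317 at 72 h. The log2 change of SBPASE at 72 h was -1.28 in WT and -1.67 in ACX, and both were called. AT1G22690, the brightest of the 5 at 0 h, makes up most of the sums at 0 h. At 72 h it read 7.75, 6.28 and 5.40 in WT, so it does not make up most of the sum on each array there. Called one by one, 1 of the 5 was higher in ACX at 0 h, AT1G22690 (log2 difference 1.00), with TRY at -0.66 and not called. Among all probe sets 7.35% were called there in either direction. At 1 h 0 of 5 in WT and 2 of 5 in ACX were called lower than at 0 h, against 3559 and 2898 of 22746 probe sets. At 72 h 3 of 5 were called lower than at 0 h in each genotype, against 6146 in WT and 6135 in ACX of 22746 probe sets. In whole leaves, fewer cells of a type and less RNA per cell cannot be told apart, and the part of these shifts in the results below was not tested.

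The time courses of the 4 genes are described one by one, and no test compared them between genes. GH3.3 rose by 1 h, and its later change was not resolved, WES1 rose by 1 h and again by 72 h, GH3.1 rose mainly by 72 h, and IAGLU rose by 1 h and then fell most of the way back. All 4 were called higher than at 0 h in all 4 treatment comparisons. Among all probe sets the share called higher was 11% in WT and 10.9% in ACX at 1 h, and 26.4% and 26.3% at 72 h; the share called in either direction was 26.7%, 23.6%, 53.4% and 53.3%. The median log2 change of the 4 genes was 2.93 in WT and 2.99 in ACX at 1 h and 4.13 and 3.88 at 72 h, against medians over all probe sets of -0.02 at 1 h and -0.06 at 72 h in both genotypes. The 1 h and 72 h comparisons of a genotype share its 0 h arrays.

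**Figure D1:**
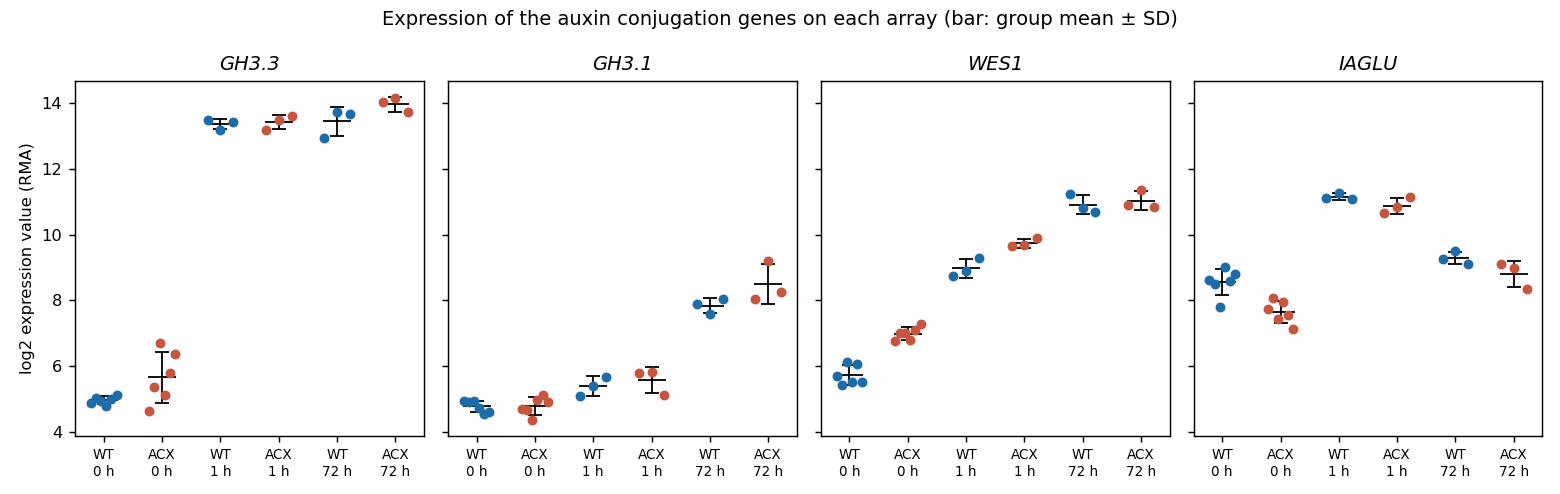
Each point is 1 array (y axis: log2 expression value; x axis: genotype and hours after spraying, blue for WT and red for ACX), and the black bars give the group mean ± SD. GH3.3 sat at or below 6.69 on all 0 h arrays and at or above 12.94 on all treated arrays, while IAGLU peaked at 1 h.

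GH3.3 encodes an auxin-amido synthetase. In WT at 0 h it read 4.77 at the lowest, 4.97 at the median and 5.12 at the highest of 6 arrays. The 3 WT arrays at 1 h read 13.48, 13.19 and 13.43. The 3 at 72 h read 12.94, 13.74 and 13.67. Every treated WT array thus lay at least 7.82 above every WT array at 0 h. In ACX the 0 h arrays spread from 4.63 to 6.69 around a median of 5.56, the 1 h arrays read 13.18, 13.50 and 13.61, and the 72 h arrays read 14.03, 14.14 and 13.72. The ACX groups at 0 h and after treatment did not overlap either.

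All 6 WT arrays at 0 h and 4 of the 6 ACX arrays read GH3.3 below the array's median, so each change runs from a dim probe set to the top of the scale. In WT at 1 h GH3.3 had the highest log2 change of all 22746 probe sets, 8.41 (SE 0.30, limma adjusted p = 1.77e-14, 95% interval 7.78 to 9.03). It ranked first in WT at 72 h as well, with 8.50, and first in ACX at 1 h, with 7.78, and ranked 3 in ACX at 72 h, with 8.32 (SE 0.30 each, limma adjusted p of 2.05e-15, 5.08e-14 and 1.79e-15). From 1 h to 72 h the change in WT was 0.09 (95% interval -0.63 to 0.81, limma adjusted p = 0.852) and in ACX 0.54 (95% interval -0.19 to 1.26, limma adjusted p = 0.215), so neither direction nor absence of a further change was resolved. All 3 ACX arrays at 72 h lay above all 3 at 1 h, by at least 0.11. When only the 6 ACX arrays at 1 h and 72 h were fitted, the ACX change passed (adjusted p = 0.027), and centring each array on its median turned the WT value to -0.12. The highest value of any probe set on an array was 14.34 to 14.52, so treated GH3.3 values lay near the top of the scale, where differences can be compressed.

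WES1 encodes a GH3 enzyme that acts on auxin and, in vitro, also on salicylic acid, and its overexpression was described to alter stress responses. In WT at 0 h it ran from 5.41 to 6.11 with a median of 5.61, at 1 h it read 8.74, 8.89 and 9.28, and at 72 h it read 11.23, 10.82 and 10.70. In ACX it ran from 6.75 to 7.26 with a median of 7.01 at 0 h, read 9.64, 9.67 and 9.89 at 1 h and 10.89, 11.36 and 10.84 at 72 h. Within each genotype the 3 times did not overlap, and each later time was higher.

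WES1 rose at 1 h by 3.25 in WT (SE 0.17, limma adjusted p = 5.92e-12) and by 2.75 in ACX (SE 0.17, 8.36e-11). At 72 h it stood 5.20 above 0 h in WT, a 36.8-fold rise, and 4.05 above 0 h in ACX, a 16.5-fold rise (limma adjusted p = 5.19e-16 and 1.63e-14). The further step from 1 h to 72 h was 1.95 in WT (SE 0.20, adjusted p = 3.96e-08) and 1.30 in ACX (SE 0.20, adjusted p = 1.18e-05). Over all probe sets 49.6% changed between 1 h and 72 h in WT and 46.2% in ACX. Among the 4 genes 3 changed in each genotype: WES1 and GH3.1 rose and IAGLU fell.

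GH3.1 encodes another auxin-amido synthetase. Its 0 h arrays ran from 4.54 to 4.93 in WT (median 4.81) and from 4.36 to 5.11 in ACX (median 4.79). All 12 of these values lay below the array's median, and 1 of them, in ACX, lay below the array's lower quartile. At 1 h the WT arrays read 5.09, 5.40 and 5.68 and the ACX arrays 5.78, 5.82 and 5.10. The WT groups at 0 h and 1 h did not overlap, while the lowest ACX array at 1 h lay 0.01 below the highest at 0 h. At 72 h the WT arrays read 7.88, 7.59 and 8.03 and the ACX arrays 8.04, 9.20 and 8.26, all above every earlier array.

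The small GH3.1 rise at 1 h was 0.62 in WT (SE 0.21, limma adjusted p = 0.0356) and 0.79 in ACX (SE 0.21, limma adjusted p = 0.00892), and its call rested on single arrays. In WT it was lost without 0 h replicate 4, 5 or 6 or 1 h replicate 2 or 3 (log2 change 0.47 to 0.61, adjusted p 0.0561 to 0.194), with the replicate number as a block (0.65, adjusted p = 0.0765) and with 0 h replicates 1 to 3 only (0.47, adjusted p = 0.232). In ACX it was lost without 1 h replicate 1 or 2 (0.68 and 0.66, adjusted p = 0.0534 and 0.0696) and with 0 h replicates 4 to 6 only (0.58, adjusted p = 0.12), which leaves 3 of the 4 genes called at 1 h in those fits. By 72 h GH3.1 had risen by 3.06 in WT (8.34-fold, adjusted p = 6.99e-11) and by 3.72 in ACX (13.2-fold, adjusted p = 2.43e-12). Most of this came after 1 h: the step from 1 h to 72 h was 2.44 in WT and 2.93 in ACX (SE 0.25 each, limma adjusted p = 4.02e-08 and 2.43e-09).

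IAGLU is annotated as the glucosyltransferase that makes the glucose ester of indole-3-acetic acid. Its WT arrays ran from 7.81 to 9.01 at 0 h (median 8.61), read 11.13, 11.27 and 11.08 at 1 h and 9.25, 9.49 and 9.11 at 72 h. Its ACX arrays ran from 7.13 to 8.08 at 0 h (median 7.64), read 10.67, 10.83 and 11.15 at 1 h and 9.09, 8.97 and 8.33 at 72 h. In both genotypes the 1 h arrays were the highest, the 72 h arrays lay between, and the 3 times did not overlap.

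At 1 h IAGLU had risen by 2.60 in WT (6.08-fold, SE 0.22, limma adjusted p = 1.26e-08) and by 3.24 in ACX (9.42-fold, SE 0.22, adjusted p = 3.68e-10). It then fell by 1.87 in WT and by 2.08 in ACX up to 72 h (SE 0.25 each, limma adjusted p = 2.7e-06 and 6.54e-07). What remained above 0 h at 72 h was 0.73 in WT (SE 0.22, adjusted p = 0.00828) and 1.15 in ACX (SE 0.22, adjusted p = 0.000134). The WT remainder was not called without WT 72 h replicate 2 (0.63, adjusted p = 0.0515) or with 0 h replicates 4 to 6 only (0.48, adjusted p = 0.0712).

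**Figure D2:**
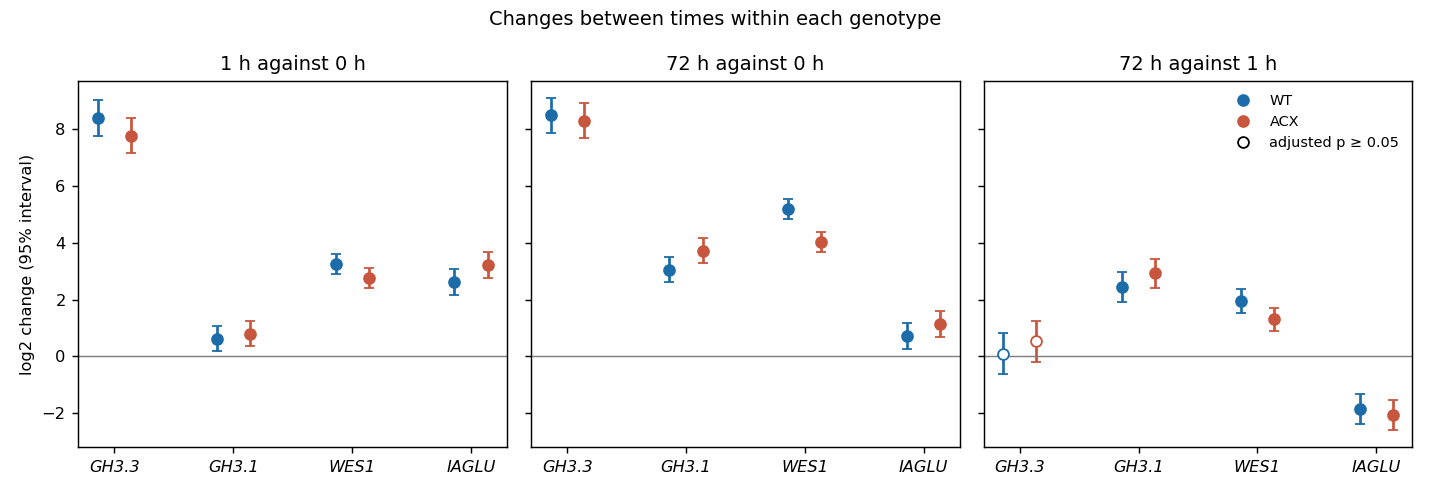
Log2 changes (y axis) of the 4 genes with 95% intervals from the limma fit, for 1 h against 0 h, 72 h against 0 h and 72 h against 1 h, in WT (blue) and ACX (red); open circles did not pass an adjusted p of 0.05. From 1 h to 72 h GH3.1 and WES1 rose, IAGLU fell, and the intervals of GH3.3 include 0.

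The comparison of the genotypes asks whether leaves of acx1-2 hold these transcripts at another level, before or after the herbicide. At 0 h 2 of the 4 genes differed, against 7.35% of all probe sets: WES1 was higher in ACX and IAGLU was lower. WES1 had means of 6.99 ± 0.19 in ACX and 5.71 ± 0.30 in WT (SD, n = 6 each), a 2.41-fold difference (log2 difference 1.27, SE 0.14, limma adjusted p = 2.12e-05), and every ACX array was above every WT array. IAGLU had means of 7.65 ± 0.35 in ACX and 8.56 ± 0.41 in WT (SD, n = 6 each), and was lower in ACX with a log2 difference of -0.91 (SE 0.18, limma adjusted p = 0.0035). Its groups overlapped through WT replicate 3 (7.81), and the call was lost with 0 h replicates 1 to 3 only (-0.56, adjusted p = 0.125), which left 1 of the 4 genes called. GH3.1 had means of 4.78 in ACX and 4.77 in WT, with an interval of the difference of -0.35 to 0.37.

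GH3.3 at 0 h had means of 5.65 ± 0.78 in ACX and 4.95 ± 0.12 in WT (SD, n = 6 each), and did not pass (log2 difference 0.70, limma adjusted p = 0.09). It passed without ACX 0 h replicate 1 (0.90, adjusted p = 0.0133) and, narrowly, with 0 h replicates 4 to 6 only (0.78, adjusted p = 0.0498). The ACX arrays were widely spread: replicates 1 to 6 read 4.63, 5.34, 6.69, 5.10, 5.77 and 6.37. The pair with the highest GH3.3, replicates 3 and 6, had the lowest IAGLU values of the group, 7.44 and 7.13. Because this pair was picked by its GH3.3 and IAGLU values after seeing the data, neither the GH3.3 nor the IAGLU difference without it (-0.73 for IAGLU) is informative. Without the pair WES1 stayed higher in ACX (1.19, adjusted p = 0.000296).

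The 0 h arrays of GH3.1 were divided by replicate number. In WT replicates 1 to 3 read 4.92, 4.91 and 4.93 and replicates 4 to 6 read 4.71, 4.54 and 4.61. In ACX the order was the opposite, with 4.68, 4.67 and 4.36 in replicates 1 to 3 and 4.95, 5.11 and 4.90 in replicates 4 to 6. The ACX minus WT difference of GH3.1 was accordingly -0.35 with replicates 1 to 3 and 0.37 with replicates 4 to 6. The arrays' lower quartiles over all probe sets were divided in the same directions. In WT they were 4.56, 4.61 and 4.58 in replicates 1 to 3 and 4.52, 4.50 and 4.51 in replicates 4 to 6. In ACX they were 4.55, 4.53 and 4.48, and 4.58, 4.60 and 4.58. Whether the GH3.1 division follows from this array-wide shift was not tested. The labels do not say what divides these replicates, or whether the division is between solvent controls of 1 h and of 72 h. With 0 h replicates 1 to 3 only, the WT 1 h call of GH3.1 and the call of the IAGLU genotype difference at 0 h were lost. With 0 h replicates 4 to 6 only, the ACX 1 h call of GH3.1 and the WT 72 h call of IAGLU were lost. Among the fits other than leaving out single arrays, the IAGLU genotype difference at 0 h ran from -1.26 to -0.56.

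At 1 h none of the 4 genes differed between the genotypes by limma, against 0.0352% of all probe sets called. At an unadjusted p under 0.05 stood 1 of the 4, WES1, and 4.58% of all probe sets. WES1 read higher in all 3 ACX arrays than in any WT array, but its log2 difference of 0.77 (SE 0.20, 95% interval 0.36 to 1.17, unadjusted p = 0.000826) had an adjusted p of 0.409 over all probe sets. With array weights it was 0.71 and passed (adjusted p = 0.0499). The differences of GH3.3, GH3.1 and IAGLU were 0.07, 0.18 and -0.28, with 95% intervals of -0.66 to 0.79, -0.33 to 0.69 and -0.81 to 0.25. At 72 h again none of the 4 passed by limma, against 2.79% of all probe sets called, and 1 of the 4, GH3.1, had an unadjusted p under 0.05, as did 13.5% of all probe sets. GH3.1 read higher in all 3 ACX arrays than in any WT array, by as little as 0.01 (difference 0.67, SE 0.25, limma adjusted p = 0.181). IAGLU read lower in all 3, by as little as 0.02 (-0.48, SE 0.25, limma adjusted p = 0.436). How many of all probe sets separate the genotypes in this way at 1 h or 72 h was not counted. WES1, the gene with the clearest difference at 0 h, had means of 11.03 ± 0.29 in ACX and 10.92 ± 0.28 in WT at 72 h (SD, n = 3 each; difference 0.12, 95% interval -0.29 to 0.52).

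**Figure D3:**
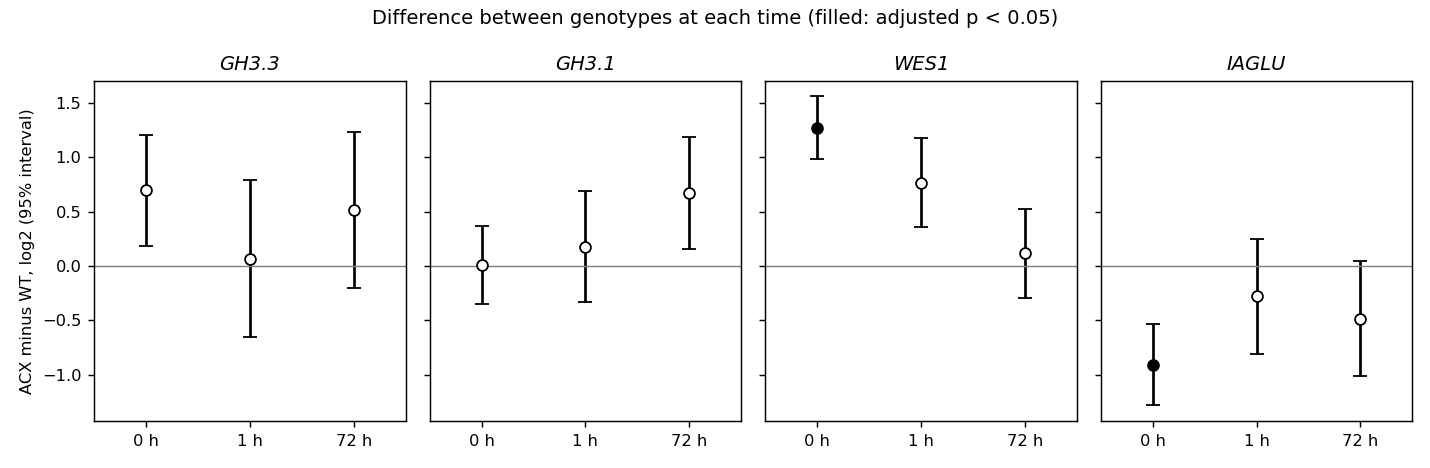
ACX minus WT log2 difference (y axis) with its 95% interval at 0 h, 1 h and 72 h (x axis) for each gene; filled circles passed an adjusted p of 0.05. WES1 went from 1.27 at 0 h through 0.77 to 0.12, and the IAGLU difference was negative throughout.

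Whether a gene's change differed between the genotypes was tested as an interaction. At 72 h 1 of the 4 genes passed, WES1, against 5.99% of all probe sets: its rise was smaller in ACX, 4.05 against 5.20, a difference of -1.16 (SE 0.24, limma adjusted p = 0.00642). Over every alternative fit and array left out this difference lay between -1.32 and -0.998, with adjusted p up to 0.0369. The levels behind it differed at 0 h and overlapped at 72 h. GH3.1 (0.66), IAGLU (0.42) and GH3.3 (-0.18) did not pass at 72 h, with limma adjusted p of 0.241, 0.551 and 0.911. At 1 h none of the 4 passed by limma, against 0.145% of all probe sets called, and 1 of the 4, WES1, had an unadjusted p under 0.05, as did 6.99% of all probe sets. The 1 h differences of the change were -0.63 for GH3.3, 0.17 for GH3.1, -0.50 for WES1 and 0.63 for IAGLU, with standard errors of 0.43, 0.30, 0.24 and 0.31.

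Ordered by group mean, GH3.3 ran WT 0 h (4.95), ACX 0 h (5.65), WT 1 h (13.36), ACX 1 h (13.43), WT 72 h (13.45) and ACX 72 h (13.97), and each group overlapped with its neighbours except across the step from 0 h to treatment. WES1 ran in the same order of groups, and its only overlapping neighbours were WT and ACX at 72 h. GH3.1 did too, and its overlapping neighbours were the genotypes at 0 h, ACX at 0 h with WT at 1 h, and the genotypes at 1 h. IAGLU ran ACX 0 h, WT 0 h, ACX 72 h, WT 72 h, ACX 1 h and WT 1 h, and WT 0 h overlapped with both ACX groups next to it, as did the genotypes at 1 h with each other.

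Other enzymes of auxin metabolism did not move as a block with these 4 genes. Of 16 further GH3 genes 8 are named on the array, and 1 of them rose strongly. GH3.17, which conjugates auxin to glutamate, read 4.59 to 4.76 in WT and 4.40 to 4.85 in ACX at 0 h. At 1 h it read 4.60, 4.56 and 4.98 in WT and 4.76, 4.83 and 4.77 in ACX. At 72 h it read 8.33, 8.13 and 8.23 in WT and 8.00, 8.02 and 7.93 in ACX. Its rise at 72 h was 3.53 in WT and 3.37 in ACX (SE 0.09 each, limma adjusted p = 1.58e-17 and 3.07e-17), while its 1 h changes were 0.01 and 0.17 (limma adjusted p = 0.945 and 0.189). GH3.17 thus resembled GH3.1, with the larger part of its rise after 1 h.

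GH3.9, a GH3 gene described in root growth, moved the other way: it fell by 0.55 at 1 h and by 0.83 at 72 h in WT (limma adjusted p = 0.00194 and 5.96e-06) and by 0.55 at 72 h in ACX (adjusted p = 0.000667), and its 1 h change in ACX was -0.34 (adjusted p = 0.0531), which passed in several other fits and without ACX 0 h replicate 1, 3 or 6 or 1 h replicate 1 (lowest adjusted p 0.0206). All GH3.9 values at 72 h, 4.08 to 4.37 in WT and 4.09 to 4.33 in ACX, lay below their arrays' lower quartiles of 4.42 to 4.46. The fall thus lies at the dim end of the scale. In counts, of the 8 other GH3 genes 0 rose and 1 fell in WT at 1 h, 1 rose and 0 fell in ACX at 1 h, 1 rose and 1 fell in WT at 72 h, and 2 rose and 1 fell in ACX at 72 h, against 26.7%, 23.6%, 53.4% and 53.3% of all probe sets called in either direction. The ACX riser at 1 h and the second at 72 h were GH3.16 (0.26 and 0.23, limma adjusted p = 0.0349 and 0.0272). These calls were lost in 4 of 9 fits each that left out 1 array, without ACX 0 h replicate 4 or 5, 1 h replicate 1 or 2, or 72 h replicate 2 or 3 (adjusted p up to 0.266 at 1 h and 0.11 at 72 h). Both were also lost with the compared groups alone, the replicate number as a block and 0 h replicates 1 to 3 only (adjusted p up to 0.158 at 1 h and 0.167 at 72 h). With array centring the 72 h change of GH3.16 was 0.10 (adjusted p = 0.307). The median log2 changes of the 8 other GH3 genes, -0.06, 0.01, -0.04 and -0.07 in the order of the counts, lay near the medians of all probe sets. In WT at 1 h 2 of the 8, GH3.9 and GH3.7, had an unadjusted p under 0.05 by limma, both with lower values, against 35.8% of all probe sets. GH3.7 read 4.06 to 4.26 on these arrays, below their lower quartiles of 4.55 to 4.56. Between the genotypes 0 of the 8 passed by limma at 0 h, 1 h or 72 h, against 7.35%, 0.0352% and 2.79% of all probe sets called. At an unadjusted p under 0.05 stood 1, 0 and 1 of them, against 20.3%, 4.58% and 13.5% of all probe sets. The closest relatives of GH3.3 and GH3.1 within the family are not among the named probe sets, and whether their transcripts bind to the probes of the 4 genes was not tested.

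Of 6 further glucosyltransferases known to act on auxins or related acids 3 are named. UGT74D1, whose enzyme glucosylates auxin and its oxidised form, had a time course like that of IAGLU at a smaller size: it rose at 1 h by 0.70 in WT and 0.91 in ACX (SE 0.16 each, limma adjusted p = 0.00192 and 0.000158), and at 72 h its changes against 0 h were 0.35 (adjusted p = 0.0645) and 0.05 (adjusted p = 0.816). The WT value passed when 0 h replicates 1 to 3 alone were used (0.52, adjusted p = 0.00665), in a fit of the compared groups (adjusted p = 0.0496), and when WT 0 h replicate 4 was left out (0.40, adjusted p = 0.0421). UGT84B1, whose enzyme glucosylates auxin, and its relative UGT84B2 were not called at 1 h, and UGT84B2 had fallen by 0.46 in ACX at 72 h (limma adjusted p = 0.0121). That call was lost without ACX 72 h replicate 1 (-0.40, adjusted p = 0.0655) and with 0 h replicates 1 to 3 only (-0.25, adjusted p = 0.0996). The ACX arrays at 72 h read UGT84B2 at 4.02 to 4.26, below their lower quartiles of 4.42 to 4.46. Of the 4 named auxin synthesis genes, all flavin monooxygenases of the YUC family, none changed by more than 0.48 against 0 h. The calls among them were YUC2 in ACX at 1 h (0.48, limma adjusted p = 0.0452) and YUC4 at 72 h in WT (-0.25, 0.0201) and ACX (-0.30, 0.00672). The YUC2 call was lost in 5 of 9 fits that left out 1 array, without ACX 0 h replicate 1, 4 or 5 or 1 h replicate 1 or 2 (adjusted p up to 0.239), and the YUC4 call in WT in 2 of 9, without WT 72 h replicate 1 or 2 (adjusted p up to 0.0676). YUC2 was also lost with the compared groups alone, the replicate number as a block, and 0 h replicates 1 to 3 or 4 to 6 only (adjusted p 0.0588 to 0.139). YUC4 in WT was also lost with quantile normalization, the compared groups alone and 0 h replicates 4 to 6 only (adjusted p 0.0694 to 0.224). In ACX YUC4 was lost with quantile normalization (-0.19, adjusted p = 0.0552). At 72 h YUC4 read 4.15 to 4.34, below the arrays' lower quartiles. The conjugate hydrolases, which free auxin again, the receptors and the transporters have no named probe set here and were not analysed.

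DAO1, the dioxygenase that oxidises auxin irreversibly, rose in all 4 treatment comparisons. It rose by 2.73 in WT and 2.61 in ACX at 1 h and stood 1.56 and 2.16 above 0 h at 72 h (SE 0.25 each, limma adjusted p between 5.76e-08 and 2.14e-05). In WT its mean was 9.26 at 1 h and 8.09 at 72 h. In ACX its 72 h arrays read 9.69, 8.55 and 8.10 and spread over the range of its 1 h arrays. Its relative DAO2 was not called at 1 h and fell at 72 h, with log2 changes of -0.36 in WT (limma adjusted p = 0.0192) and -0.41 in ACX (adjusted p = 0.00848). It read 4.04 to 4.33 at 0 h and 3.74 to 3.87 at 72 h. These values lay below the arrays' lower quartiles, which were 4.48 to 4.61 at 0 h and 4.42 to 4.46 at 72 h. The WT call was lost without WT 72 h replicate 2 or 3 (adjusted p = 0.0623 and 0.0588). It was also lost with quantile normalization (adjusted p = 0.0797) and with 0 h replicates 4 to 6 only (adjusted p = 0.108). The ACX call was lost with 0 h replicates 1 to 3 only (adjusted p = 0.0539). No other gene of this list is named on the array.

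**Figure D4:**
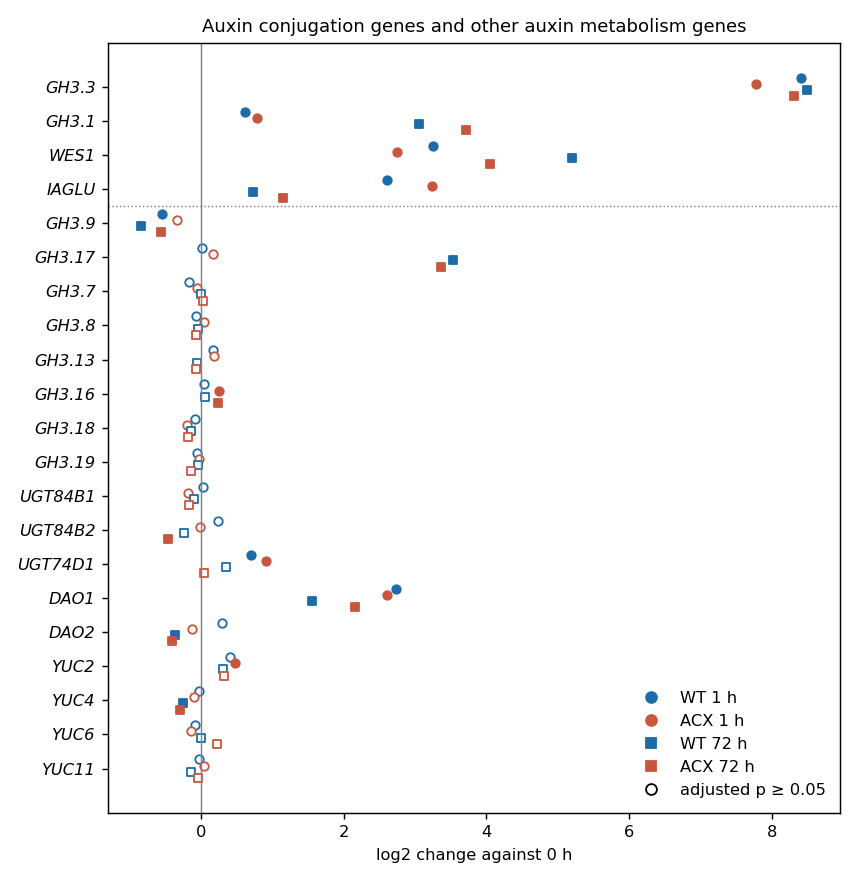
Log2 change against 0 h (x axis) of the 4 conjugation genes, above the dotted line, and of the other named auxin metabolism genes (y axis), at 1 h (circles) and 72 h (squares) in WT (blue) and ACX (red); open symbols did not pass an adjusted p of 0.05. Beside the 4 genes, GH3.17 at 72 h and DAO1 at both times stand more than 1 above 0.

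The genes with the most similar profiles were taken from 1579 probe sets with a gene symbol, by Pearson correlation of log2 values over the 24 arrays, which share the same 6 groups. These are descriptions of likeness, given without a test. GH3.3 was most like HAT2 (r = 0.985), a homeodomain transcription factor gene known to respond to auxin, and the Aux/IAA genes IAA29 (r = 0.971) and IAA30 (r = 0.967). HAT2 was also the most like WES1 (r = 0.974), followed by FDH (r = 0.971), which encodes formate dehydrogenase, and EIN3 (r = 0.96), an ethylene signalling transcription factor gene. GH3.1 was most like LPR1 (r = 0.972), a ferroxidase gene of the root response to low phosphate, UPB1 (r = 0.961), a regulator of peroxidase genes, and RL2 (locus AT5G45160, r = 0.959).

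IAGLU kept other company. Its profile was most like GT72B1 (r = 0.945), a glycosyltransferase gene whose enzyme acts on chlorinated phenols, UGT73B1 (r = 0.926), another glycosyltransferase gene, and AER (r = 0.918), which encodes an alkenal reductase. Their means rose from 9.96 to 11.96, from 6.40 to 9.26 and from 8.39 to 11.72 between 0 h and 1 h in WT, and stood at 10.61, 6.70 and 9.01 at 72 h. Among the 4 genes themselves, GH3.3 and WES1 had the highest correlation (r = 0.941), followed by GH3.1 with WES1 (r = 0.855), and IAGLU correlated at 0.713 with GH3.3, 0.478 with WES1 and 0.154 with GH3.1.

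**Figure D5:**
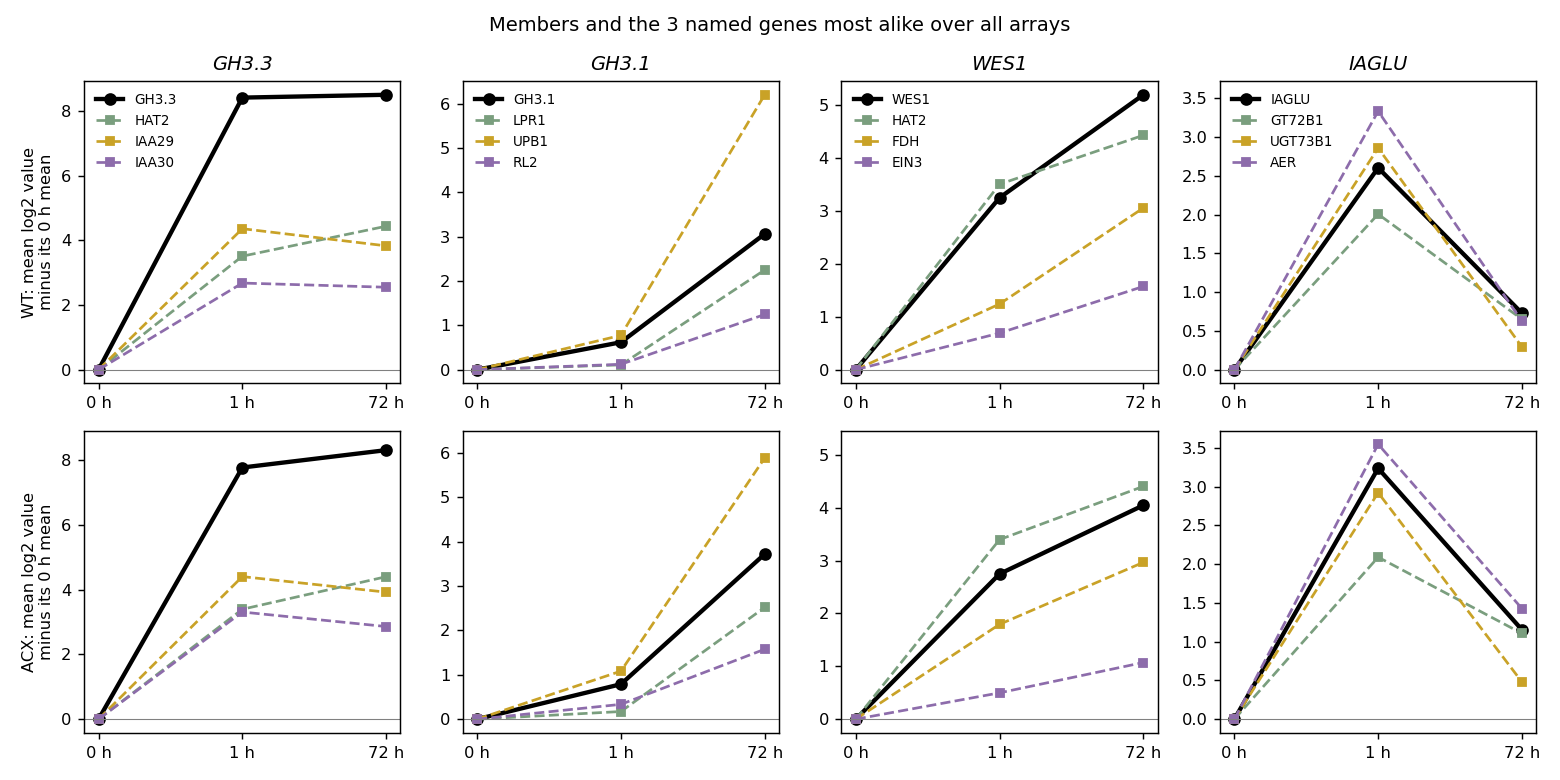
Group means of each gene minus its own 0 h mean (y axis, log2) at 0 h, 1 h and 72 h (x axis), in WT (upper row) and ACX (lower row): the black line is the conjugation gene and the dashed lines are its 3 most similar named genes. GH3.3 rose 8.41 by 1 h in WT while its nearest genes rose by smaller steps, and the IAGLU group shares the peak at 1 h.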

How the data were processed

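Leaf RNA of 24 arrays in 6 groups was analysed. The deposited log2 values, 1 per probe set, came from RMA, a method the submitters' processing notes list beside limma; the sources used here give no version or settings, nor whether 1 run covered all arrays. RMA usually includes quantile normalization, which would hide a shift common to most genes, and it compresses changes of dim probe sets. The values were used as the authors deposited them. Of 22810 probe sets 64 controls were left out. A platform annotation of 2016 gives 13513 tested probe sets 1 gene, 503 several and 8730 none; of the 13513, 13436 matched a locus.

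limma 3.58.1 in R 4.3.3 fitted 1 mean per group to all arrays (18 residual and 3.23 prior degrees of freedom), with two-sided p-values adjusted by Benjamini-Hochberg within each of 11 comparisons. Errors are standard errors of this fit or SDs between arrays, whose number limits the precision. The procedure was tested on simulated data. The genes, lists and tests were chosen with earlier results of these data known. The rule for named genes took the 4 genes, the 3 most similar genes of each and listed auxin metabolism genes; of several probe sets of a listed gene the brightest was used. Alternatives were array centring, quantile normalization, filters on the lowest 25% or 50% of probe sets, a trended and robust prior, array weights, fits of the compared groups alone, a block for the replicate number, 0 h replicates 1 to 3 or 4 to 6 only, and leaving out each array; leaving out ACX 0 h replicates 3 and 6 was added after seeing the data. For the most similar genes, Spearman correlation and the arrays of 1 genotype were tried.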

Additional observations from a re-analysis of the deposited data

Results flagged for a closer look

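WES1 was noted because its change at 72 h differed between the genotypes by the interaction test: it rose by 5.20 in WT and by 4.05 in ACX, a difference of -1.16 (SE 0.24, limma adjusted p = 0.00642; 6 arrays at 0 h and 3 at 72 h per genotype). The 72 h groups overlapped, and at 0 h every ACX array was above every WT array. In a test for single arrays far from the rest of their group, 0 of 8 gene and 0 h group combinations were beyond the critical value; chance alone gives about 1 in 20. The groups of 3 arrays were not tested in this way.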

How the results depend on the processing

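Of 849 recomputed values of the 4 genes over 44 results, 815 kept their direction and their side of the threshold, 13 lost a call, 4 gained one and 17 changed sign, the last all in results not called. Array centring shifted the median change of all probe sets at 72 h from -0.06 to -0.21 in WT and to -0.20 in ACX; it gave 4948 higher and 10521 lower in WT (5007 and 10012 in ACX), against 6007 and 6146 (5980 and 6135), and from 1 h to 72 h 4316 and 10451 (4199 and 9218), against 5736 and 5557 (5374 and 5135). With centring GH3.3 in WT from 1 h to 72 h was -0.12 and UGT74D1 in ACX at 72 h -0.090, and -0.051 with quantile normalization. With array weights WES1 at 1 h was higher in ACX (0.71), 1 gene called instead of 0. With the compared groups alone GH3.3 from 1 h to 72 h in ACX passed (0.54, adjusted p = 0.027). The filter on the lowest 50% left out GH3.1 and, with fewer probe sets tested, gave 7989 calls in WT at 72 h (12153 before), 7881 in ACX (12115), and 7335 (11293) and 6939 (10509) from 1 h to 72 h. With 0 h replicates 1 to 3 only, GH3.1 in WT at 1 h was 0.47, GH3.17 there -0.019, UGT74D1 in ACX at 72 h -0.058, and in ACX against WT at 0 h GH3.1 was -0.35 and IAGLU -0.56, 1 gene called instead of 2. With replicates 4 to 6 only, GH3.1 in ACX at 1 h was 0.58, IAGLU in WT at 72 h 0.48, GH3.3 in ACX against WT at 0 h 0.78, and the interaction of GH3.1 at 1 h -0.19. Without ACX 0 h replicates 3 and 6, picked by their GH3.3 and IAGLU values, the interaction of GH3.3 at 72 h was 0.26 and UGT74D1 in ACX at 72 h -0.15. The cause was not tested.

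Leaving out single arrays gave, for GH3.1, 0.47 to 0.77 in WT at 1 h, 0.66 to 1.02 in ACX at 1 h and -0.058 to 0.092 in ACX against WT at 0 h. For GH3.3 it gave 0.49 to 0.90 in ACX against WT at 0 h, -0.024 to 0.19 at 1 h, -0.058 to 0.34 in WT from 1 h to 72 h and -0.44 to 0.025 for the interaction at 72 h. It gave -0.051 to 0.27 for WES1 in ACX against WT at 72 h, 0.58 to 0.82 for IAGLU in WT at 72 h, -0.093 to 0.14 for UGT74D1 in ACX at 72 h and -0.12 to 0.090 for GH3.17 in WT at 1 h. Leaving out an array of a group not compared changed 0 of 624 calls, counted over the 4 genes, the comparisons and the arrays left out. Over all probe sets, the calls in ACX against WT at 0 h (1671) became 1101 without ACX replicates 3 and 6, 1085 without WT replicate 1, 2691 with replicates 1 to 3 and 4184 with replicates 4 to 6; at 72 h 635 became 209 to 334 without WT replicate 1 or 2 or ACX replicate 3, 2 with the compared groups alone, 396 with the 50% filter and 1357 with array weights; at 1 h 8 became 4 to 14 without single arrays and 45 with array weights. In ACX at 1 h 5367 became 3478 without ACX 1 h replicate 3. Interaction calls ran from 6 to 1122 at 1 h (33) and 705 to 2914 at 72 h (1362).

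Replicate numbers did not pair the arrays in all groups: deviations of same-numbered arrays correlated at -0.51 to 0.36 over 9 pairs of groups, none with all above 0.1. In each of the 9 pairs, replicates 1 to 3 of either group were matched to those of the other, so that arrays were reused. Of 54 such matches 22 were best with their own number, from 0 of 6 (ACX 72 h with ACX 0 h or 1 h) to 5 of 6 (WT 0 h with WT 1 h or 72 h). With so few candidates, part of these matches arise by chance. With the replicate number as a block GH3.1 in WT at 1 h was 0.65 (adjusted p = 0.0765), and no other call of the 4 genes changed. By Spearman correlation 0 of the 3 most similar genes of GH3.1 and GH3.3, 1 of IAGLU and 2 of WES1 were again among the first 3; in WT arrays alone it was 1 for GH3.1 and WES1 and 2 for GH3.3 and IAGLU, and in ACX arrays 1 for GH3.1 and 2 for the others.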
